A study of Mus musculus with 22 samples.

Results

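Late-passage mouse embryonic fibroblasts (MEFs) lacking S6K1 were compared with late-passage wild-type (WT) MEFs across all genes, using every library that the labels give as S6K1 KO or S6K1 WT at passage 8. The comparison held 3 late KO and 4 late WT libraries, 7 of the 22 libraries of the series, and 14132 of 55401 gene identifiers passed the filter on low counts. MEFs are primary cells grown from mid-gestation embryos, here on a C57BL/6 background, with the head and viscera removed before the culture was started. The embryos came from matings of mice heterozygous for *S6K1* and not from a tissue-specific deletion, so all cells of a KO culture carried the deletion. WT and KO embryos shared mothers by the study's methods, but no source names the libraries that share one. Each library is 1 replicate, and *P* values measure the spread between libraries. The 4 early WT libraries (passage 3) of the same set entered the fit and served as a reference level. A further set of 11 libraries held 3 late *S6K1/S6K2* double KO (DKO), 4 late WT and 4 early WT libraries.

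S6K1 is a kinase that acts downstream of mTOR complex 1. It phosphorylates ribosomal protein S6 and other proteins of the translation machinery, and it feeds back on insulin signalling. MEFs that are passaged in atmospheric oxygen stop dividing, take on the features of senescence and secrete cytokines, proteases and growth factors, together called the senescence-associated secretory phenotype (SASP).

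The total count per library was 14263644 to 16111060 in late KO and 12118190 to 16689637 in late WT MEFs, and 3 counts corresponded to 0.180 to 0.248 CPM (counts scaled to the library size) in these libraries, which covers counting error only. The chi-square per degree of freedom between libraries of a group was 29.4 to 109.6, so no pair agreed within sampling noise. The correlation of log2 CPM was 0.970 to 0.982 between KO libraries, 0.947 to 0.973 between late WT libraries and 0.951 to 0.966 between a KO and a late WT library. The 14 fibroblast markers were all detected and summed to 25072 to 27812 CPM in KO and 20283 to 28831 CPM in late WT MEFs. The 22 macrophage markers, among them *Adgre1*, *Csf1r* and *C1qa*, were present as well, at a sum of 3654, 4378 and 4972 CPM in the KO libraries and 11513, 5494, 9719 and 6411 CPM in the late WT libraries. That sum did not overlap between the groups, and it was 516 to 1134 CPM in early WT MEFs. Y-linked RNA was present in 3 of 3 late KO libraries but only in replicate 3 of the 4 late WT libraries, where *Xist* was 142.6, 151.1, 0 and 190.9 CPM. The sexes of the embryos were therefore unequal between the groups. In bulk RNA, fewer cells of a type and less RNA per cell cannot be told apart.

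The deleted gene was examined first. *Rps6kb1*, which encodes S6K1 (chromosome 11, 86498869 to 86544885, build GRCm38.p6), was at 22.3, 22.6 and 13.9 CPM in the KO libraries and 55.6, 73.6, 55.1 and 64.7 CPM in the late WT libraries. Every KO library was below every WT library, although transcript remained in all 3, and counts per gene do not show which exons it held. The log2 fold change was -1.67 ± 0.19 (SE, edgeR, adjusted *P* = 0.00744). *Rps6kb2*, which encodes the related kinase S6K2, was at 13 ± 2.44 CPM in KO and 10.6 ± 2.23 CPM in late WT MEFs (mean ± SD), with overlapping libraries and a log2 fold change of 0.30 ± 0.21 (SE, edgeR, adjusted *P* = 0.656).

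Loss of S6K1 left 6 genes past a false discovery rate of 5% (0.0425% of the genes tested), of which 5 fell and 1 rose (0.0354% and 0.00708%). Apart from *Rps6kb1*, the genes that fell were *Wfdc17*, which encodes a secreted protein with a WAP domain and is expressed by macrophages, the chemokine genes *Ccl9* and *Ccl4*, and the pseudogene *Slfn10-ps*. All 5 lie on chromosome 11, and the other 4 lie 2.79 to 3.46 Mb from *Rps6kb1*. The gene that rose, ENSMUSG00000093483.1, has no symbol or position in the tables used here. The bases upstream of the start sites of *Wfdc17* (chr11:83703806-83704055, plus strand) and *Ccl9* (chr11:83578637-83578886, minus strand) are shown because these were the protein-coding genes with the smallest adjusted *P* values apart from the deleted gene (RefSeq, GRCm38.p6, 250 bases, 5′ to 3′, with no motif marked).
Wfdc17: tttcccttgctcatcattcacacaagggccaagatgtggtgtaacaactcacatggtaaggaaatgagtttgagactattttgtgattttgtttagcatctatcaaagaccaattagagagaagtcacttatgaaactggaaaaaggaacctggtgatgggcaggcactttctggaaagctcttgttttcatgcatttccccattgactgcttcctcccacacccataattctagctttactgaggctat
Ccl9: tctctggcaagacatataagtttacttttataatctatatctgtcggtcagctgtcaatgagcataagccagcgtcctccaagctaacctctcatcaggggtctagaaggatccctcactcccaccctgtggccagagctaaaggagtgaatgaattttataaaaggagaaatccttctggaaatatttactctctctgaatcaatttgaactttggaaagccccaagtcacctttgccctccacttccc

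*Wfdc17* (chromosome 11, 83704056 to 83706269) was at 3.98, 5.11 and 5.79 CPM in KO and 83.1, 48.9, 61.1 and 60.4 CPM in late WT MEFs. The log2 fold change was -3.67 ± 0.26 (SE, edgeR, adjusted *P* = 8.53e-05), and early WT MEFs had 0.58 to 1.3 CPM, so the KO level lay between the early and the late WT levels. *Ccl9*, a chemokine that attracts myeloid cells (chromosome 11, 83572917 to 83578636), was at 9.48, 8.78 and 8.68 CPM in KO and 58.3, 23.1, 44.9 and 34.1 CPM in late WT MEFs. Its KO libraries varied little and lay just above the 5.91 to 8.32 CPM of early WT MEFs, with a log2 fold change against late WT of -2.16 ± 0.28 (SE, edgeR, adjusted *P* = 0.0204). *Ccl4*, a chemokine of the CC family, was at 3.09, 2.65 and 2.3 CPM in KO and 15.9, 13.2, 12.9 and 12.3 CPM in late WT MEFs (log2 fold change -2.34 ± 0.34 SE, edgeR, adjusted *P* = 0.0427).

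*Slfn10-ps*, a pseudogene in the Schlafen cluster, was low in all libraries, at 0.481, 0.601 and 0.371 CPM in KO and 4.21, 2.42, 2.85 and 4.07 CPM in late WT MEFs. The KO values rest on 5 to 10 counts per library, and the log2 fold change was -2.77 ± 0.36 (SE, edgeR, adjusted *P* = 0.0204). Reads of this pseudogene may be shared with its close paralogs. ENSMUSG00000093483.1 was at 15.8, 15.4 and 19.4 CPM in KO and 2.37, 1.33, 1.23 and 2.08 CPM in late WT MEFs (log2 fold change 3.27 ± 0.45 SE, edgeR, adjusted *P* = 0.0252).

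**Figure D1:**
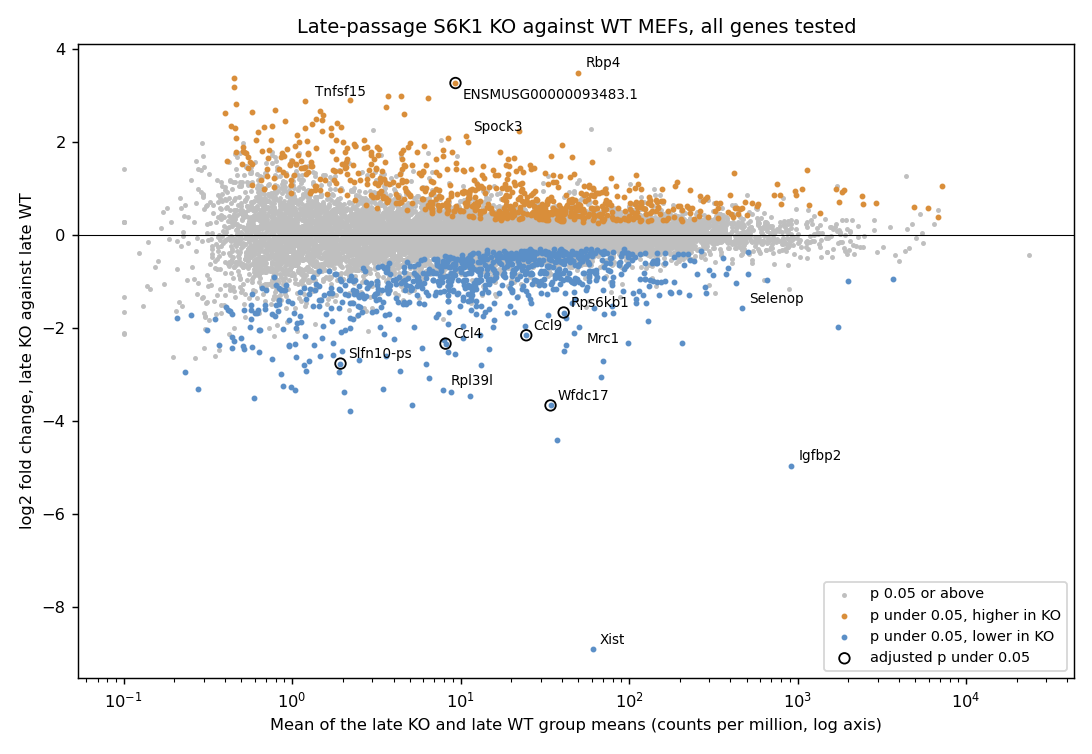
Each point is 1 of the 14132 genes tested, with the mean of the group means (CPM, log axis) against the log2 fold change between late KO and late WT MEFs, from edgeR. Circles mark the 6 genes with an adjusted P under 0.05, of which 5 are below 0 and 1 is above it, and colours mark the 695 higher and 804 lower genes with an unadjusted P under 0.05.

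*Wfdc17* and *Rps6kb1* passed the threshold in all 11 fits that left out 1 library. *Ccl9*, *Ccl4*, *Slfn10-ps* and ENSMUSG00000093483.1 did not pass without late KO replicate 1, 2 or 3 or without late WT replicate 3 or 4, each of which left 2 genes past the threshold, and *Ccl4* and ENSMUSG00000093483.1 also did not pass without late WT replicate 2, nor *Ccl4* without late WT replicate 1, which left 4 and 9 genes. With the macrophage marker level as a covariate 2 genes passed (0.0142%), *Wfdc17* (log2 fold change -3.28) and *Rps6kb1* (-1.89), and with DESeq2 in place of edgeR 96 genes were higher and 165 lower (0.679% and 1.17%), including all 6.

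Below that threshold many genes had a small unadjusted *P*. At an unadjusted *P* under 0.05, 695 genes were higher and 804 lower without S6K1, which is 4.92% and 5.69% of the genes tested. Their median fold was 1.71 for the higher and 1.89 for the lower genes, and 245 higher and 340 lower genes differed by more than 1 on the log2 scale. The KO libraries lay above all late WT libraries for 985 genes (6.97%) and below all of them for 887 (6.28%), together 13.2%. With no difference between the groups, a share of about 0.05 of genes would fall under that *P*, and 0.0571 would not overlap. Part of both counts is therefore due to chance. Over all genes tested the median log2 fold change was -0.01, and 48.6% of the values were above 0. The plot of all genes shows these genes at every expression level. In what follows, genes outside the 6 are described by their values and unadjusted *P* values, and none of them passed the adjustment over all genes.

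Away from chromosomes 11, X and Y, 622 of 12548 genes were higher and 707 lower at an unadjusted *P* under 0.05 (4.96% and 5.63%), and edgeR called 1 higher and 0 lower genes at a false discovery rate of 5% (0.00797% and 0%), where DESeq2 called 85 and 139 (0.677% and 1.11%). These counts include 873 genes without a position in the tables, among them the 1 that rose. Among the 12 genes with the smallest *P* of those that were lower, with separate libraries, 11 are described: *Arhgap19*, *Mrc1*, *Sirpa*, *Il10ra*, *Gbp8*, *Cd33*, *Ptger4*, *Cds1*, *Selenop*, *Hpgd* and *Emilin2*. Their log2 fold changes were -2.71 to -0.97 (unadjusted *P* = 6.79e-05 to 0.000412, edgeR, adjusted *P* = 0.0749 to 0.157). Several encode receptors of the myeloid cell surface: *Mrc1* the mannose receptor, *Sirpa* the receptor that binds CD47, *Il10ra* a chain of the interleukin-10 receptor and *Cd33* a sialic acid-binding lectin.

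*Mrc1* was at 18.5, 26.6 and 16.2 CPM in KO and 69.2, 64.3, 129.7 and 59.2 CPM in late WT MEFs. The 3 KO libraries were near the early WT level of 10.4 to 21.6 CPM, and late WT replicate 3 stood above the other late WT libraries. *Sirpa* was at 104.5, 142.7 and 110.4 CPM in KO and 364.2, 197.9, 341.5 and 209.1 CPM in late WT MEFs, where replicates 1 and 3, the libraries with the highest macrophage marker sums, were also the highest. The log2 fold changes were -1.98 ± 0.34 for *Mrc1* and -1.22 ± 0.24 for *Sirpa* (SE), and with the macrophage marker level as a covariate they were -1.36 and -0.56. *Il10ra* was at 5.15, 6.5 and 7.34 CPM in KO and 22.4, 10.3, 20.7 and 13.9 CPM in late WT MEFs, with a log2 fold change of -1.41 ± 0.28. The covariate was added after the data were seen, and *Mrc1* is itself 1 of the 22 markers that make it up, so its smaller value was fixed by that choice. The part that the number of macrophages had in these values was not tested otherwise.

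The other lower genes are not receptors of this kind. *Arhgap19*, which encodes a GTPase-activating protein for RhoA, was at 7.9, 10.3 and 8.6 CPM in KO and 31.1, 19.8, 43.8 and 20.2 CPM in late WT MEFs (log2 fold change -1.68 ± 0.28, or -1.16 with the macrophage marker covariate). *Selenop*, which encodes the secreted selenium carrier selenoprotein P, was at 163.6, 302.5 and 239.7 CPM in KO and 755.5, 637.4, 820.9 and 607.9 CPM in late WT MEFs. Even the highest KO library held less than any late WT library, and the fold change was -1.58 ± 0.33 on the log2 scale, or -1.55 with the macrophage marker covariate.

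*Ptger4*, the EP4 receptor for prostaglandin E2, was at 4.94, 6.86 and 7.05 CPM in KO and 14.5, 27.1, 27.2 and 15.3 CPM in late WT MEFs, and *Hpgd*, the enzyme that starts the inactivation of prostaglandins, was at 27.8, 45 and 34.3 CPM against 90.4, 59.5, 99.2 and 61 CPM. The groups did not overlap for either gene (log2 fold change -1.74 ± 0.36 and -1.12 ± 0.23), and with the macrophage marker covariate *Ptger4* was at -1.82 and *Hpgd* at -0.56. *Gbp8*, a guanylate-binding GTPase, belongs to the interferon response and had a log2 fold change of -2.71 ± 0.54, with KO values that rest on 3 to 8 counts per library. *Emilin2*, a matrix glycoprotein, and *Cds1*, an enzyme of phospholipid synthesis, had -1.54 and -0.97.

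The 12 higher genes chosen by the same rule were *Tnfsf15*, *Map7*, *Gulp1*, *Gpc1*, *Spock3*, *Avpr1a*, *Slc5a7*, *Palmd*, *Ctsw*, *Synpo2l*, *Adgrg6* and *Lrp11*, with log2 fold changes of 0.55 to 2.98 (unadjusted *P* = 4.31e-05 to 0.000341, edgeR, adjusted *P* = 0.0684 to 0.154). *Tnfsf15*, a cytokine of the TNF family, was at 4.6, 3.85 and 11.2 CPM in KO and 1.22, 0.781, 0.559 and 0.748 CPM in late WT MEFs. Replicate 3 was the highest of the KO libraries, and the log2 fold change of 2.98 ± 0.48 was 2.35 to 3.24 when 1 library was left out. *Map7*, which encodes a microtubule-associated protein, was at 2.33, 3.01 and 4.45 CPM in KO and 0.918, 0.547, 0.671 and 0.415 CPM in late WT MEFs (log2 fold change 2.33 ± 0.38).

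Better expressed genes differed by less. *Gpc1*, the cell surface proteoglycan glypican 1, was at 85.9, 89.3 and 77.9 CPM in KO and 47.7, 38.2, 49.7 and 43.4 CPM in late WT MEFs (log2 fold change 0.91 ± 0.16). *Gulp1*, an adaptor for the engulfment of apoptotic cells, was at 45.3, 52.7 and 36.9 CPM against 20, 19.3, 13.6 and 19 CPM (1.33 ± 0.23). For both genes the KO level was closer than the late WT level to that of early WT MEFs, which was 97.4 to 141.2 CPM for *Gpc1* and 36.4 to 64.5 CPM for *Gulp1*. *Spock3*, a secreted testican proteoglycan, was at 21.6, 18.7 and 12 CPM in KO and 4.44, 3.13, 1.51 and 7.23 CPM in late WT MEFs. Both groups were below the 31.4 to 53.8 CPM of *Spock3* in early WT MEFs.

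*Avpr1a*, the V1a vasopressin receptor, and *Slc5a7*, the choline transporter, were instead low in early WT MEFs, at 3.99 to 8.27 and 4.6 to 9.01 CPM. *Avpr1a* was at 32.6, 40.4 and 21.4 CPM in KO and 12.3, 11.4, 10.4 and 6.06 CPM in late WT MEFs (log2 fold change 1.65 ± 0.31). *Slc5a7* was at 41.5, 80.9 and 67.4 CPM in KO and 27.9, 22.7, 28.7 and 26.9 CPM in late WT MEFs (log2 fold change 1.25 ± 0.24). With the macrophage marker covariate the 12 higher genes had log2 fold changes of 0.60 to 3.20 and the 11 lower genes -2.17 to -0.56, so each kept its sign. The genes had been picked for small *P* and separate libraries in the same data, which made a kept sign likely beforehand.

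**Figure D2:**
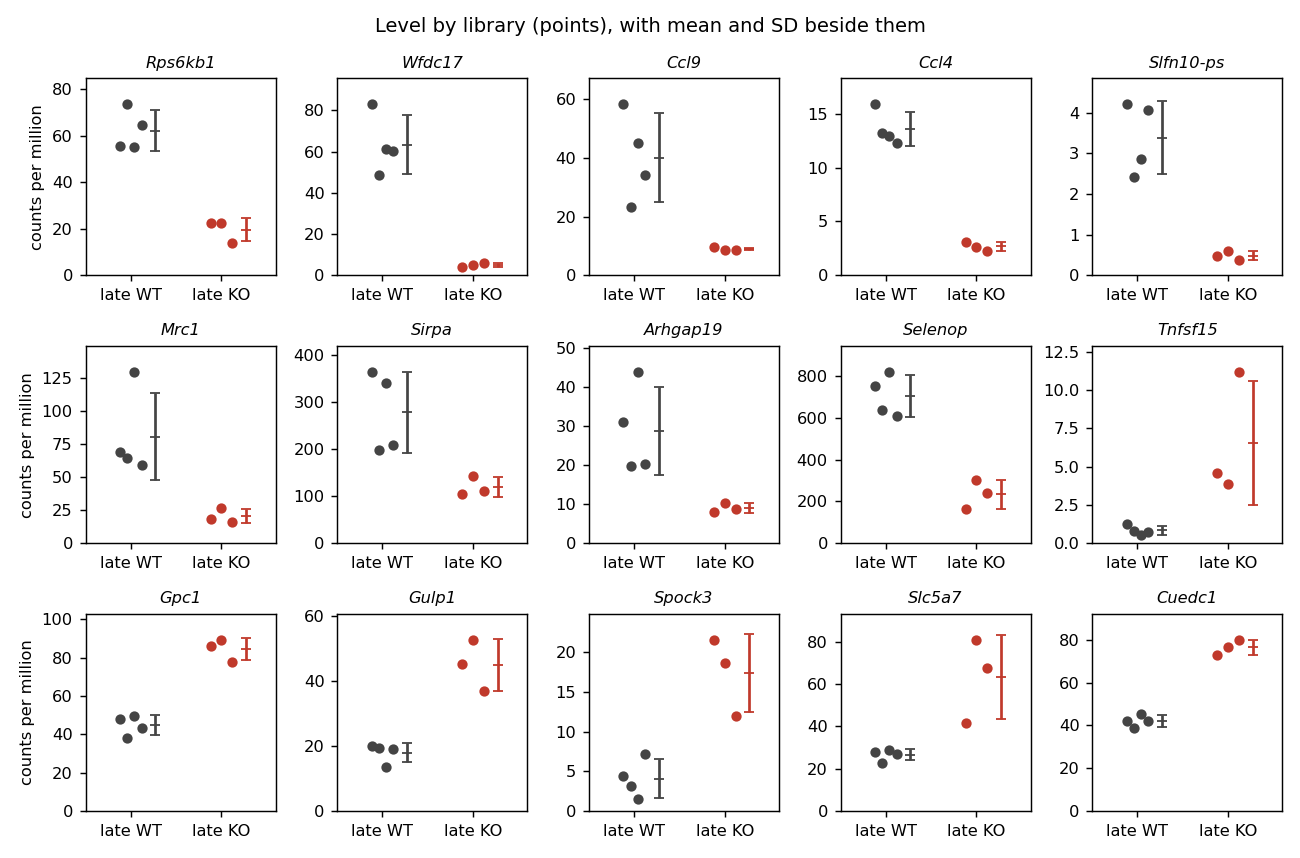
Level in CPM of 15 genes in the 4 late WT (grey) and 3 late KO (red) libraries, with the mean and SD of each group beside the points and each axis starting at 0. The groups are separate for every gene shown, and the KO libraries of Ccl9 (8.68 to 9.48 CPM) are closer together than those of Tnfsf15 (3.85 to 11.2 CPM).

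The genes with the largest fold changes among those with separate libraries, the X and Y chromosomes left out, were more variable. Among the higher genes *Rbp4*, the retinol carrier of plasma, was at 78.3, 60.9 and 136.6 CPM in KO and 13.7, 1.33, 0.783 and 17.2 CPM in late WT MEFs (log2 fold change 3.49 ± 0.88), and *Ivl*, the envelope protein involucrin, and *Dync1i1*, a dynein chain, had 3.00 ± 0.73 and 2.69 ± 0.65. Among the lower genes *Igfbp2*, an IGF-binding protein, was at 27.1, 63.5 and 80.1 CPM in KO and 93.5, 1154.7, 146.4 and 5732.7 CPM in late WT MEFs. Its log2 fold change of -4.97 ± 1.36 followed late WT replicates 2 and 4, since replicate 1 was only just above the highest KO library, and it was -5.38 to -3.03 when 1 library was left out. *Rpl39l*, a paralog of the ribosomal protein gene *Rpl39*, was high in late WT replicates 2 and 3 (30.2 and 20.9 CPM) and low in replicates 1 and 4 (2.83 and 3.16 CPM), near the KO range of 0.722 to 2.37 CPM. *4930455G09Rik* and *Lvrn* had log2 fold changes of -3.50 and -3.28 at levels under 4 CPM, with 1 to 2 and 2 to 3 counts per KO library.

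By chromosome, the share of genes at an unadjusted *P* under 0.05 was 8.05% (chromosome 8) to 13.6% (chromosome 1) over the autosomes, beside 10.6% of all genes tested. Chromosome 11 held 43 higher and 67 lower of 1104 genes, or 9.96%. The share was larger near the deleted gene: it was 18.9% of the 206 genes within 10 Mb of *Rps6kb1* and 7.67% of the 874 genes farther away. Alleles linked to the deletion and the deletion itself cannot be told apart in this design. The higher genes on chromosome 11 with the smallest *P* were *Cuedc1*, *Rasl10b*, *Vezf1* and *Cfap36*. *Cuedc1*, which encodes a protein with a ubiquitin-binding CUE domain and lies 1.55 Mb from *Rps6kb1*, was at 73, 76.6 and 80 CPM in KO and 41.9, 38.6, 45.5 and 42 CPM in late WT MEFs (log2 fold change 0.87 ± 0.14, edgeR, adjusted *P* = 0.0684).

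Chromosome 14 had the largest share of higher genes of any autosome. There 40 of 450 genes were higher and 18 lower at that *P* (8.89% and 4%, beside 4.92% and 5.69% of all genes tested). In both directions together its share was 12.9%, within the range of the autosomes. The mitochondrial genome held 5 higher and 0 lower genes of 15 at an unadjusted *P* under 0.05 (33.3% and 0%). These were *mt-Nd1*, *mt-Nd2*, *mt-Nd4*, *mt-Nd5* and *mt-Cytb*, which encode subunits of respiratory complexes I and III and are named here after their values were seen. *mt-Nd4* was at 580.5, 669.6 and 549.3 CPM in KO and 341.3, 267.3, 128.6 and 216.8 CPM in late WT MEFs, and the log2 fold changes of the 5 genes were 0.86 to 1.33. The mitochondrial rRNA genes *mt-Rnr1* and *mt-Rnr2* overlapped between the groups, at log2 fold changes of 0.21 and 0.19, and for *mt-Nd6*, the gene on the other strand, the value was 0.04. The nuclear genes of the respiratory chain had a median of -0.06 over 75 genes, with 0 genes at an unadjusted *P* under 0.05 by edgeR and 0 past a false discovery rate of 5% by DESeq2. In the late DKO the 5 mitochondrial values were -0.37 to -0.11 (edgeR, adjusted *P* = 0.575 to 0.784).

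Lists of genes with a common function were then read as counts beside those of all genes. Of the 16 S6 kinases and substrates, *Rps6kb1* was the only member past an unadjusted *P* of 0.05, and the median log2 fold change was -0.01. Of 22 mTOR complex members and regulators, *Castor1*, an arginine sensor, had 0.36 ± 0.16 and *Sesn1*, a sestrin that restrains mTOR complex 1, had -0.78 ± 0.22. *Sesn1* was at 16.6, 21.2 and 16.3 CPM in KO and 29.3, 28.3, 42.4 and 23.9 CPM in late WT MEFs, without overlap. *Deptor*, a subunit that inhibits mTOR, was at 7.53 CPM in KO and 13.5 CPM in late WT MEFs but overlapped.

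Among 39 chemokine and cytokine ligands tested, 6 were lower and 3 higher at an unadjusted *P* under 0.05 (5.69% and 4.92% of all genes), and the median was -0.05. The lower ligands were *Ccl9*, *Ccl4*, *Ccl3*, *Ccl6*, *Ccl11* and *Cxcl16*, of which the first 4 are neighbours on chromosome 11. *Ccl3* was at 1.85, 1.98 and 1.71 CPM in KO and 14.6, 8.67, 8.11 and 8.64 CPM in late WT MEFs (log2 fold change -2.43 ± 0.40, edgeR, adjusted *P* = 0.0684). The higher ligands, named like *Ccl11* and *Cxcl16* after their values were seen, were *Cxcl12*, *Il6* and *Spp1*. *Il6*, an interleukin of the SASP, was at 13, 8.42 and 14.3 CPM in KO and 6.96, 2.19, 1.17 and 4.57 CPM in late WT MEFs (log2 fold change 1.69 ± 0.58). *Cxcl12*, the ligand of CXCR4, was at 1337.5, 1446.7 and 1022.6 CPM against 955.9, 515.3, 333.6 and 838.0 CPM (0.94 ± 0.30). For both of these ligands the KO libraries were above all late WT libraries, so the ligands did not all differ in the same direction. *Il1a* had 1 count or fewer in each KO and late WT library, and *Il1b* had 1 to 6 counts in KO and 0 to 5 in late WT libraries, so neither passed the filter on low counts here. In the fit over all 6 groups *Il1b* had a log2 fold change of 0.25 (edgeR, adjusted *P* = 0.936), and in the DKO it had -1.92 (edgeR, adjusted *P* = 0.119). The KO and DKO values of *Il1b* differed by 2.14 (edgeR, adjusted *P* = 0.516), and at this depth a difference in the KO was not detectable.

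Most genes of innate sensing had values below 0, and the mean level of the inflammasome list overlapped between the groups. Of 20 inflammasome and cytosolic DNA sensing genes, 17 had a negative log2 fold change, 5 of them at an unadjusted *P* under 0.05 (5.69% of all genes were lower at that *P*), with a median of -0.39. *Casp1*, the protease that cleaves pro-interleukin-1β, was at 5.29, 7.58 and 6.82 CPM in KO and 20.8, 10.8, 13.4 and 13.5 CPM in late WT MEFs, without overlap (log2 fold change -1.15 ± 0.25). *Pycard*, the adaptor ASC, *Gsdmd*, the pore-forming gasdermin D, and *Naip5*, a receptor of the NLRC4 inflammasome, had -1.07, -1.10 and -1.06. Of 60 interferon-induced genes 40 had a negative value, with a median of -0.28. Of these, 5 (*Trim25*, *Parp14*, *Oas2*, *Ifi27* and *Psmb8*) were at an unadjusted *P* under 0.05, a share near the 5.69% of all genes. With the macrophage marker covariate the medians of these lists were 0.00 and 0.13. The 19 NF-κB subunits and inhibitors had 0 genes at an unadjusted *P* under 0.05 by edgeR and 0 past a false discovery rate of 5% by DESeq2, with a median of -0.14.

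All 5 Schlafen genes tested were lower (median -1.86), and 4 had an unadjusted *P* under 0.05, beside 5.69% of all genes that were lower at that *P*. *Slfn2*, a regulator of quiescence in immune cells, was at 27.8, 28.4 and 27.8 CPM in KO and 92.9, 57.1, 57.2 and 55.6 CPM in late WT MEFs, and *Slfn5* was at 2.4, 3.97 and 1.85 CPM against 17.8, 14.5, 11.7 and 8.89 CPM. The family lies in 1 cluster near *Rps6kb1*, so its members do not count as independent, and reads may be shared between paralogs. With the macrophage marker covariate the median was -0.94.

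Of the 22 macrophage markers all had a negative log2 fold change, 16 at an unadjusted *P* under 0.05, beside 5.69% of all genes, and the median was -0.87. *Laptm5*, a lysosomal membrane protein of blood cells, was at 90.8, 116.3 and 104.3 CPM in KO and 341.1, 167.4, 294.9 and 193.1 CPM in late WT MEFs, and *C1qa*, a chain of complement C1q, was at 220.8, 291.0 and 341.6 CPM against 912.0, 422.8, 544.0 and 453.2 CPM. Other cells left smaller traces. No lymphocyte or erythroid marker passed the filter on low counts, and their sums were at most 0.18 and 0.112 CPM. The 8 adipocyte markers summed to 81.6 to 146 CPM in KO and 161 to 371 CPM in late WT MEFs, and the 6 mesothelial markers to 10.9 to 19.5 and 3.52 to 11.6 CPM. The adipocyte sum largely followed *Lpl*, which had means of 56.1 CPM in KO and 203.5 CPM in late WT MEFs. *Cebpa* was lower as well (16.7 and 32.3 CPM), but *Fabp4* (33.4 and 34.3 CPM) and *Pparg* (5.39 and 5.36 CPM) were nearly equal. Complement genes were at a median of -0.30 over 16 genes, with *Cfp*, *C2*, *C3ar1* and *C5ar1* lower and *Masp1* and *Cd55* higher among those at an unadjusted *P* under 0.05.

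**Figure D3:**
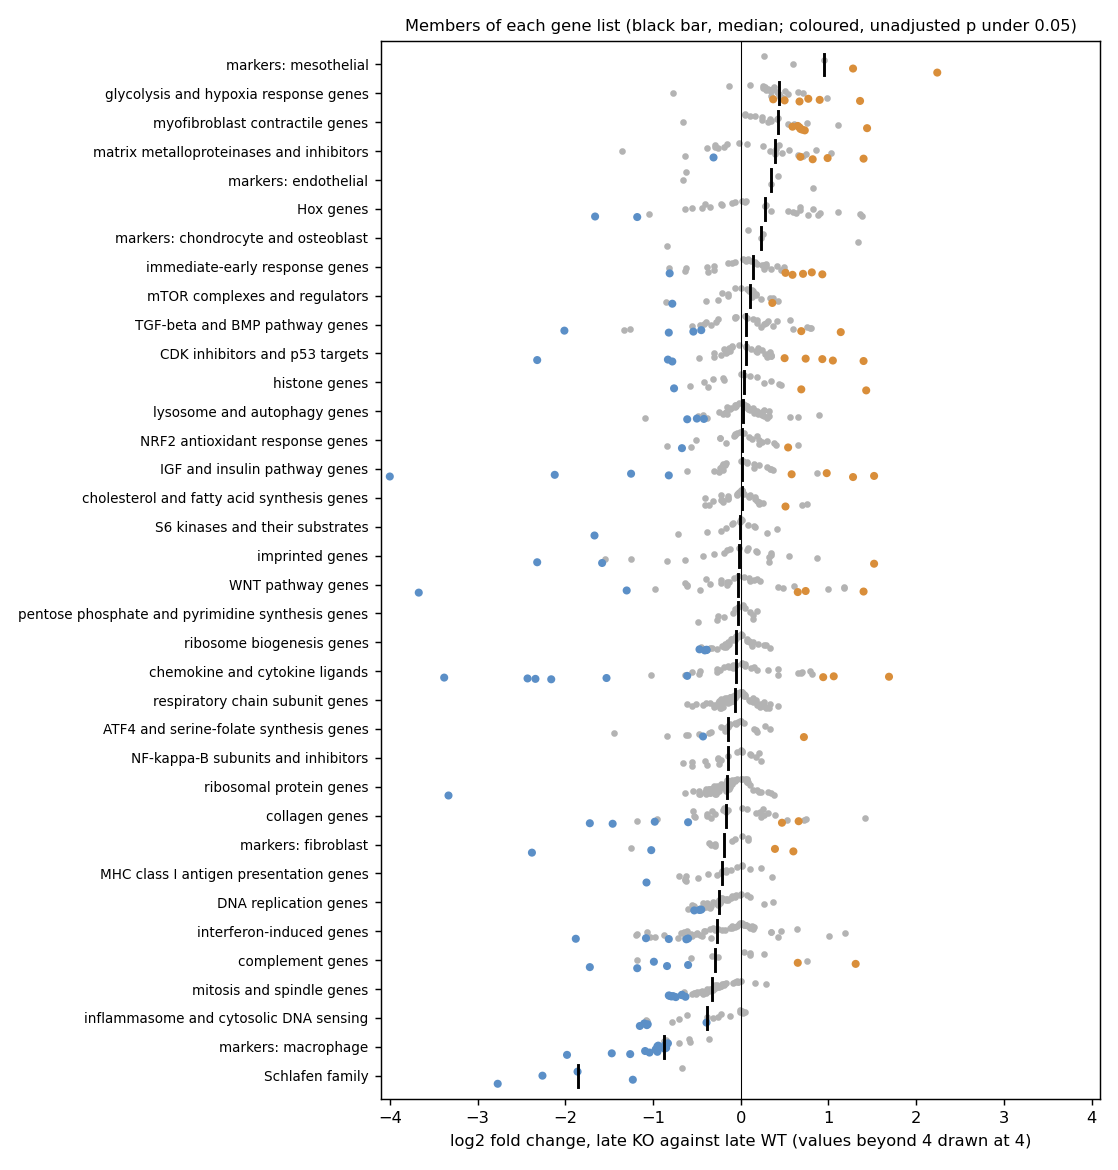
Each point is a tested member of a gene list, with its log2 fold change between late KO and late WT MEFs on the horizontal axis (values beyond 4 drawn at 4), and the black bar is the median of the list. The Schlafen family and the macrophage markers have the lowest medians (-1.86 and -0.87), and the glycolysis and contractile lists have medians of 0.44 and 0.43 with most members above 0.

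The genes of cell cycle arrest differed in both directions. *Cdkn2a*, which encodes p16Ink4a and p19Arf, was at 297.4, 314.1 and 531.0 CPM in KO and 370.6, 589.7, 428.9 and 343.3 CPM in late WT MEFs, with overlap and a log2 fold change of -0.19 ± 0.29 (SE, edgeR, adjusted *P* = 0.861). In early WT MEFs it was at 116.7 to 261.7 CPM. *Cdkn1a*, which encodes p21, had 0.28 ± 0.20 (716.3 and 589.9 CPM in KO and late WT MEFs). Over 35 CDK inhibitors and p53 targets, 5 were higher and 3 lower at an unadjusted *P* under 0.05 (4.92% and 5.69% of all genes), with a median of 0.06. *Cdkn1c*, which encodes p57, was at 37.6, 26.4 and 35.1 CPM in KO and 23.9, 348.8, 230.5 and 56.9 CPM in late WT MEFs. Late WT replicate 1 was below every KO library, and the value for *Cdkn1c* in the DKO was 0.16 on the log2 scale.

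Most genes of proliferation had values below 0. Of 51 mitosis and spindle genes 48 had a negative log2 fold change, 8 at an unadjusted *P* under 0.05, with a median of -0.33, and of 40 DNA replication genes 35 were negative, 3 at that *P*, with a median of -0.25. Over all genes 5.69% were lower at that *P*, which is near the share of the replication list. *Cdk1*, the kinase that drives entry into mitosis, was at 92.4, 73.7 and 67.1 CPM in KO and 145.2, 97.8, 91.2 and 147.2 CPM in late WT MEFs, so the highest KO library was above the lowest late WT library. *Mcm4*, a subunit of the replicative helicase, was at 49, 39.9 and 37 CPM against 53.3, 54.5, 60.4 and 64 CPM, without overlap. The mean log2 CPM of the mitosis list overlapped between the groups. DESeq2 called 0 genes of either list at a false discovery rate of 5%, as did edgeR.

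Because S6K1 acts on the translation machinery, the ribosome was examined. Of 81 ribosomal protein genes 64 had a negative value, with a median of -0.16, and *Rpl39l* was the only gene at an unadjusted *P* under 0.05. This direction turned when the level of Y-linked genes was a covariate, where the median was 0.36 and 27 genes were higher at an unadjusted *P* under 0.05, beside 7.39% of all genes in that fit. The 47 ribosome biogenesis genes had a median of -0.05, and *Utp20*, *Rrs1*, *Ubtf* and *Rrp12* were lower at log2 fold changes of -0.47 to -0.39.

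Glycolysis and the hypoxia response lay in the other direction. Of 31 genes 29 had a positive log2 fold change, 6 at an unadjusted *P* under 0.05 (beside 4.92% of all genes), and the median was 0.44. *Vegfa*, the angiogenic growth factor, was at 68.3, 50.9 and 64 CPM in KO and 43.1, 29.5, 33.7 and 47.4 CPM in late WT MEFs (log2 fold change 0.67 ± 0.18). *Egln3*, a prolyl hydroxylase that marks HIF for degradation, was at 14.4, 7.58 and 8.83 CPM against 7.35, 2.5, 2.85 and 3.32 CPM (1.36 ± 0.38), and *Ero1a*, an oxidase of the endoplasmic reticulum, was at 100, 79.1 and 100.8 CPM against 54.4, 74, 63.7 and 72.4 CPM (0.50 ± 0.17). The groups were separate for all 3 genes. *Bnip3*, a mitophagy receptor, overlapped, at 87.4, 96.8 and 63.1 CPM in KO and 60.6, 27.1, 24 and 64.7 CPM in late WT MEFs. The median of the list was 0.43 under either other scaling, 0.29 to 0.51 when 1 library was left out and 0.76 with the macrophage marker covariate, and with the Y-linked covariate it was 0.27 with 12 of 31 genes negative.

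The core of the hypoxia response element, ACGTG on either strand, was searched in the 250 bases upstream of RefSeq start sites, and it stood in 20 of 30 glycolysis and hypoxia genes with a promoter in the table (66.7%) and in 2564 of 10302 genes tested (24.9%). Promoters of 3 of the genes above are shown with the match in capitals, on either strand (RefSeq, GRCm38.p6, 5′ to 3′ on the strand of the gene): *Egln3* (chr12:54203875-54204124, minus strand), *Ero1a* (chr14:45318573-45318822, minus strand) and *Bnip3* (chr7:138909507-138909756, minus strand), where 2 matches on opposite strands overlap.
Egln3: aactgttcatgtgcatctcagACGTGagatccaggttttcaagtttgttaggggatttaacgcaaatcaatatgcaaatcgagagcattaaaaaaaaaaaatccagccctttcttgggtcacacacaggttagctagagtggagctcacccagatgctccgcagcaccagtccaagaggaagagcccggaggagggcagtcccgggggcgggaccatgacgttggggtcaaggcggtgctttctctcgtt
Ero1a: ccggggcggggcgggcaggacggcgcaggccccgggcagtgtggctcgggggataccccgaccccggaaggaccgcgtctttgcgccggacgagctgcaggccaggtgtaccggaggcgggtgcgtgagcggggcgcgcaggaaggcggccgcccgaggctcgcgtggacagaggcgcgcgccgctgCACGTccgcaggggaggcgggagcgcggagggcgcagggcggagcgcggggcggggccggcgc
Bnip3: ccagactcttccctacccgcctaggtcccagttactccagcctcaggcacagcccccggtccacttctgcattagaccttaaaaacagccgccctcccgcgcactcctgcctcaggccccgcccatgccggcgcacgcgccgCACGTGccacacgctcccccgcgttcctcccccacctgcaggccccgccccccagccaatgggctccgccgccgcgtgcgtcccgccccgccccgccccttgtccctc

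Contractile genes of the myofibroblast had mostly positive values as well. Of 23 genes 22 had a positive value, 7 at an unadjusted *P* under 0.05 (beside 4.92% of all genes), and the median was 0.43. The mean level of the 4 skeletal muscle markers tested was separate between the groups as well (-0.14 to 0.28 in KO and -0.49 to -0.36 in late WT MEFs on the log2 scale, relative to the mean of 11 libraries), while the sum of all 11 overlapped at 76.1 to 176 and 31.7 to 146 CPM. The part of muscle cells in the contractile values was not tested. *Vcl*, the adhesion protein vinculin, was at 608.3, 628.1 and 585.8 CPM in KO and 419.2, 336.2, 364.7 and 374.2 CPM in late WT MEFs (log2 fold change 0.70 ± 0.19), and *Tpm1*, a tropomyosin, was at 3524.5, 3264.2 and 3953.3 CPM against 2486.2, 1858.9, 2306.8 and 2305.6 CPM (0.68 ± 0.19). *Lmod1*, leiomodin, and *Myh11*, smooth muscle myosin, had 0.73 ± 0.19 and 1.44 ± 0.42, and none of these 4 genes overlapped between the groups. *Acta2*, smooth muscle actin, had 0.54 ± 0.27 at an unadjusted *P* = 0.0667. The 34 immediate-early genes had 5 higher and 1 lower member at an unadjusted *P* under 0.05 (4.92% and 5.69% of all genes) and a median of 0.14. *Ccn1*, which encodes a matricellular protein, was at 552.8, 494.1 and 526.7 CPM in KO and 372.0, 349.6, 338.1 and 330.6 CPM in late WT MEFs (log2 fold change 0.59 ± 0.14), without overlap. *Ccn2*, a protein of the same family, overlapped, with KO libraries from 1659.9 CPM and late WT replicate 1 at 1848.9 CPM, and *Nr4a2*, a nuclear receptor, was lower without overlap (-0.81 ± 0.30).

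The CArG box, the binding motif of serum response factor, was found upstream of 4 of 20 contractile genes (20%) and of 147 of 10302 genes tested (1.43%). Besides *Vcl* these were *Myl9*, *Cnn2* and *Srf*, with log2 fold changes of 0.65, 0.05 and 0.10, so not every gene with the box differed. The promoter of *Vcl* is shown with the box in capitals (chr14:20929148-20929397, plus strand, RefSeq, GRCm38.p6). A match in these letters is a description of the sequence and not a measured site. The lists hold genes grouped by function, so the shares of motifs describe the lists and not an effect of the KO. Searched in the same way on both strands, the interferon-stimulated response element stood upstream of 21 of 45 interferon-induced genes (46.7%) and 3.14% of all genes tested, the E2F site TTTCCCGC upstream of 3 of 31 DNA replication genes (9.68%) and 1.96%, and the PU.1 site GAGGAAGT upstream of 1 of 16 macrophage markers (6.25%) and 2.84%.
Vcl: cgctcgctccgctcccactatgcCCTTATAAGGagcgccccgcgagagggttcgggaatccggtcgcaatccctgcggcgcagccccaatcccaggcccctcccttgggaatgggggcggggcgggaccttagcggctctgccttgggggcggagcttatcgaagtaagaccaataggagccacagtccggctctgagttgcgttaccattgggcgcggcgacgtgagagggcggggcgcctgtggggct

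**Figure D4:**
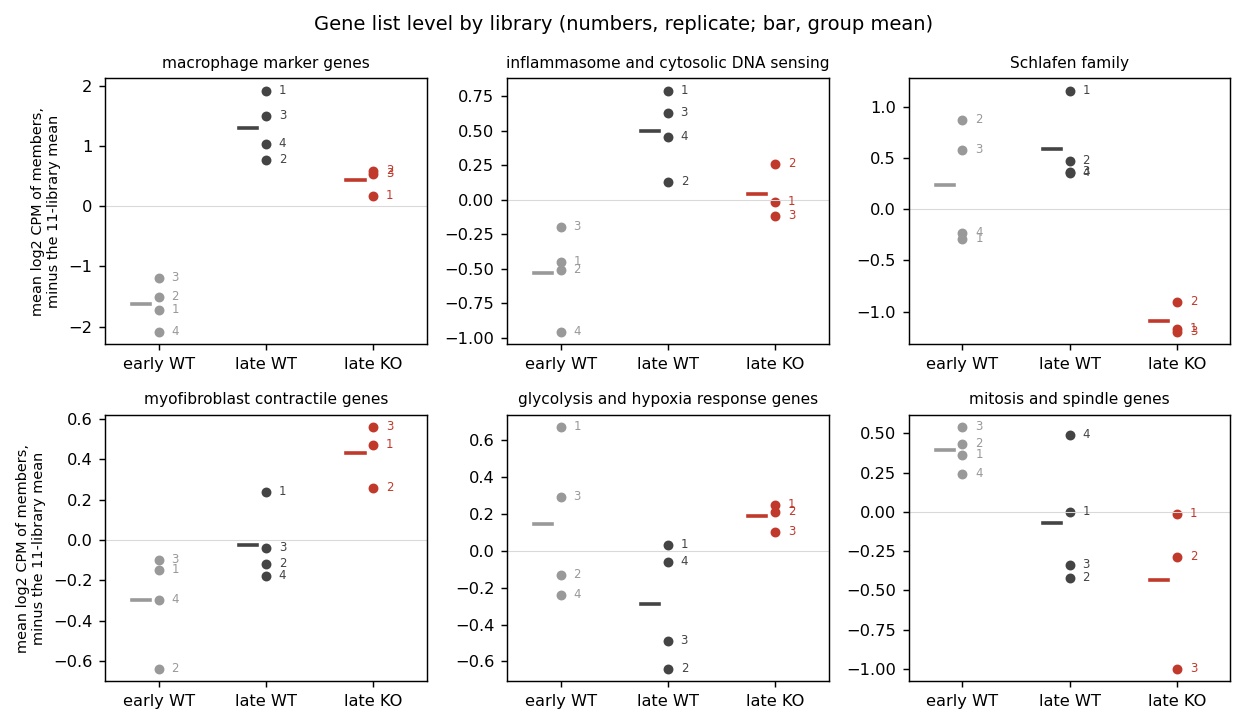
Mean log2 CPM of the tested members of 6 gene lists in each library, minus the mean over 11 libraries, with replicate numbers beside the points and a bar for the group mean. Late KO and late WT libraries are separate for the macrophage, Schlafen, contractile and glycolysis lists. The margin is narrow for the contractile list (lowest KO 0.26, highest late WT 0.24) and the glycolysis list (0.10 and 0.03). Libraries overlap for the inflammasome and mitosis lists, and the macrophage list is lowest in early WT MEFs.

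Secreted and matrix genes differed in both directions. Of 28 matrix metalloproteinases and inhibitors, 4 were higher, among them *Adamts12*, *Timp1* and *Mmp2*, and *Adam17* was lower at an unadjusted *P* under 0.05 (4.92% and 5.69% of all genes), with a median of 0.39. *Timp1*, an inhibitor of these proteases, was at 984.4, 1358.5 and 1926.7 CPM in KO and 1135.3, 459.4, 440.5 and 832.7 CPM in late WT MEFs, so late WT replicate 1 lay within the KO range. The same replicate lay within or below the KO range for several collagens and growth regulators that were lower in KO MEFs. *Col6a3* was at 62.1, 88 and 26.3 CPM in KO and 78.7, 224.7, 236.0 and 106.9 CPM in late WT MEFs (log2 fold change -1.46 ± 0.45), and *Pdgfra*, a receptor for platelet-derived growth factor, was at 17.4, 15.9 and 7.27 CPM against 12.7, 111.4, 107.6 and 49.8 CPM (-2.38 ± 0.67). For *Wnt4*, *Hoxd8* and *Dlk1* the overlap between the groups was again with late WT replicate 1.

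The IGF and insulin list, on which S6K1 feeds back, held 4 higher and 4 lower genes of 30 at an unadjusted *P* under 0.05 (4.92% and 5.69% of all genes) and a median of 0.01. *Pappa*, the protease that frees IGF from its binding proteins, was at 127.6, 113.9 and 223.6 CPM in KO and 58.5, 66.3, 45.5 and 85.7 CPM in late WT MEFs, without overlap. *Igf1* was at 85.7, 85.3 and 95.2 CPM against 173.3, 187.3, 151.0 and 116.5 CPM (-0.82 ± 0.26), and the binding protein genes *Igfbp5* and *Igfbp6* were low in KO and in late WT replicates 1 and 4. *Igfbp5* was at 12.5 to 22 CPM in KO and 16, 132.6, 138.0 and 20.4 CPM in late WT MEFs, so these 2 late WT libraries lay within the KO range. In the TGF-β and BMP list *Tgfb3*, a TGF-β ligand, was at 286.5, 273.5 and 240.3 CPM in KO and 179.4, 82.1, 85.1 and 136.9 CPM in late WT MEFs (1.14 ± 0.29), and *Id2*, a target of BMP signalling, was at 47, 44.1 and 44.5 CPM against 65, 96.6, 77.7 and 79.2 CPM (-0.82 ± 0.19). The remaining pathway lists had medians between -0.22 and 0.28, apart from the Y-linked genes (1.81) and the X-inactivation and escape genes (-0.49), which followed the unequal sexes. The lists of lysosome, cholesterol, pentose phosphate, NRF2 and mTOR genes each held at most 3 genes in either direction at an unadjusted *P* under 0.05 (4.92% higher and 5.69% lower of all genes).

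The same genes were then read in the late DKO against its own late WT, which share no library with the S6K1 set. The WT cells of that set came from other mothers than the DKO, so genotype and litter cannot be told apart there, and Y-linked RNA was present in 1 of 3 DKO and 3 of 4 late WT libraries there, the reverse of the imbalance in the S6K1 set. In that set 118 genes rose and 568 fell past a false discovery rate of 5% (0.821% and 3.95% of 14365 genes). Of the genes at an unadjusted *P* under 0.05 in the KO, 464 of 688 higher genes were also higher in the DKO (67.4%, where 49.1% of all genes were) and 593 of 793 lower genes were also lower (74.8%, where 50.9% of all genes were). Of the lower genes 232 also fell past the false discovery rate in the DKO, and of the higher genes 17 also rose. Away from chromosomes 11, X and Y the shares were 66.7% and 74.6%.

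The 6 called genes had the same sign in the DKO and passed there too, with log2 fold changes of -5.10 for *Wfdc17*, -1.64 for *Rps6kb1*, -3.51 for *Ccl9*, -3.12 for *Ccl4*, -5.07 for *Slfn10-ps* and 4.45 for ENSMUSG00000093483.1 (edgeR, adjusted *P* = 0.000786 to 0.0183). *Rps6kb1* is deleted in the DKO as well, so its fall there was fixed by the design. *Wfdc17*, *Ccl9*, *Ccl4* and *Slfn10-ps* lie 2.79 to 3.46 Mb from it, and alleles linked to the deletion cannot be told apart from the deletion in either set. For these genes the DKO was therefore not an independent test. Of the 11 lower genes away from chromosome 11, 10 were negative in the DKO and 7 fell, among them *Arhgap19* (-2.16) and *Selenop* (-1.57), whereas *Ptger4* was at 0.18. All 12 higher genes were positive in the DKO, at 0.12 to 1.36, with 5 at an unadjusted *P* under 0.05 (beside 7.27% of all genes there that were higher) and 0 past a false discovery rate of 5% by edgeR, where DESeq2 was not run. The macrophage marker sum was lower in the DKO as well, at 965 to 3605 CPM against 7993 to 13671 CPM. With the macrophage marker covariate in both sets the share with the same direction was 45.8% in place of 71.4%, beside 43.4% of all genes. The marker sum did not overlap between the genotypes in either set, so the covariate also removes part of any genotype difference. A lower share was therefore likely beforehand, and the part of macrophages in the shared direction was not tested. Leaving out 1 library of the S6K1 set gave a share of 63.6% (late WT replicate 1) to 80.9% (late WT replicate 2).

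**Figure D5:**
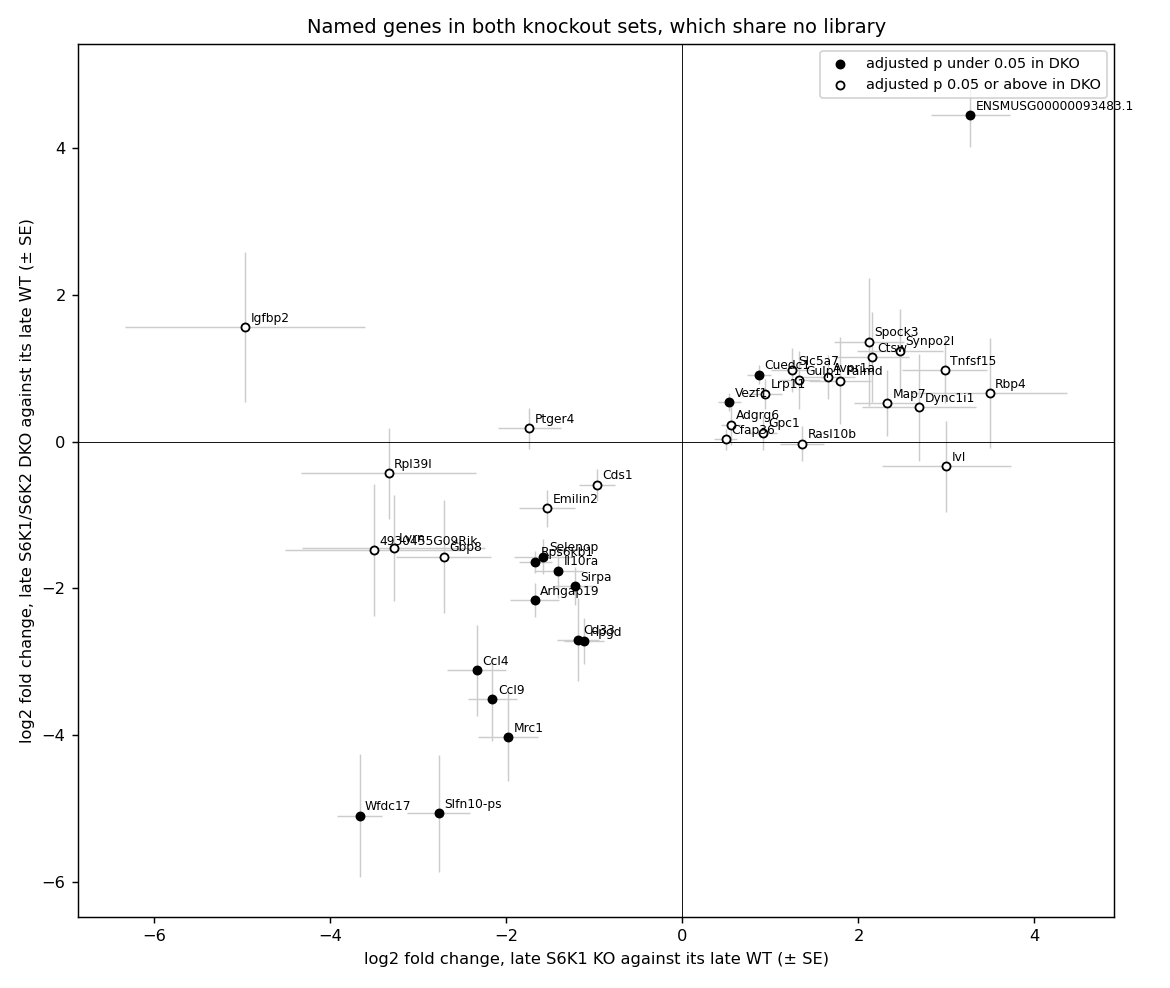
Log2 fold change with its SE in late S6K1 KO against its late WT (horizontal) and in late S6K1/S6K2 DKO against its late WT (vertical) for the named genes that passed or had the smallest P or the largest fold. Filled points had an adjusted P under 0.05 in the DKO, while the 12 higher genes away from chromosome 11 are open points between 0.12 and 1.36 on the vertical axis.

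Some lists differed between the sets in sign. The glycolysis and hypoxia list had 29 of 31 positive values in the KO and 27 of 31 negative values in the DKO (median 0.44 and -0.28), and the contractile list had medians of 0.43 and -0.03. In a test of the difference between the KO and the DKO effect over 14886 genes, *Rps6kb2*, which is deleted in the DKO alone, was the only gene past a false discovery rate of 5%, or 0.00672% (difference 4.24 ± 0.37 on the log2 scale, edgeR, adjusted *P* = 4.01e-06). *Egln3* had the largest difference among the 4 glycolysis and hypoxia genes named above, at 2.60 ± 0.49 (edgeR, adjusted *P* = 0.148), and *Cacfd1*, the gene with the second smallest *P*, had -0.96 at the same adjusted value. The mitosis list had medians of -0.33 in the KO and -0.81 in the DKO. In the KO its mean level overlapped between the groups and no member passed, but only 0.0354% of all genes fell there. In the DKO 18 of the 51 mitosis genes fell past a false discovery rate of 5%, beside 3.95% of all genes tested there. The counts of members that passed cannot be compared between the sets, because far more genes were called in the DKO.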

How the data were processed

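RNA was sequenced from 22 libraries, and the deposited file holds raw read counts per gene, which the authors did not normalise. The submitters' notes name mm10, STAR 2.7.1a, CASAVA and DESeq2 1.28.1, whereas the study's methods name mm9, TopHat and HTSeq, so the aligner and build are unsettled. Gene symbols were matched by Ensembl identifier (32589 of 55401 identifiers, 96.98% of counts), and coordinates and promoters are from RefSeq, GRCm38.p6. Genes passing filterByExpr were scaled by TMM and tested with edgeR 4.0.16 (robust quasi-likelihood F test, R 4.3.3) over late KO, late WT and early WT libraries of the S6K1 set, with Benjamini-Hochberg adjustment over all genes. SE denotes the standard error of a log2 fold change. An exact permutation test of 3 against 4 libraries cannot give a two-sided *P* below 0.0571, so none was used. On simulated data for this comparison (13833 to 13870 genes, 200 genes changed by 2 on the log2 scale), edgeR recovered 83.5% to 92.5% and 2.63% to 5.11% of its calls were genes left unchanged, while DESeq2 1.42.0 recovered 91.5% to 96% and 15.4% to 23.1% of its calls were such genes.

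Described genes were those past a false discovery rate of 5%, the 12 with the smallest *P* in each direction away from chromosomes 11, X and Y with separate libraries, 4 in each direction on chromosome 11, 4 in each direction by fold, and up to 4 of each list by *P*. Any other gene was chosen after its values were seen, and some genes that met the rule are not reported here. The comparison, 33 gene lists and 11 marker lists were chosen with earlier results of these data known. Alternatives were DESeq2, other scalings, no filter, other sets of libraries, covariates for Y-linked and macrophage marker levels, and each library left out.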

Additional observations from a re-analysis of the deposited data

Results flagged for a closer look

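Among 172 values of the 4 late WT libraries, 13 had 1 library that stood apart from the other 3, and chance marks about 5% of such groups. Replicate 3 was the lowest for *Gulp1* (13.6 CPM) and the highest for *Mrc1* (129.7 CPM) and *Cds1* (10.9 CPM). As the only late WT library with Y-linked RNA, it was also the highest for *Eif2s3y* (80.6 CPM), *Kdm5d* (11.2 CPM), *Uty* (17.3 CPM) and *Ddx3y* (129.9 CPM). Replicate 1, which had the highest macrophage marker sum, was the highest for *Ccl3* (14.6 CPM), *Slfn2* (92.9 CPM), *Slfn8* (4.97 CPM) and *Egln3* (7.35 CPM). Replicate 4 was the highest for *Fen1*, a nuclease of DNA replication (44.8 CPM), and for *mt-Nd6* (240.2 CPM).

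The effect of the KO and that of the DKO differed for *Rps6kb2* by 4.24 on the log2 scale in the test of the difference.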

How the results depend on the processing

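No paired analysis was possible because the sources do not say which WT and KO libraries share a mother, and the replicate numbers were given in accession order. Against 1 higher and 5 lower genes (6 in all), DESeq2 called 96 and 165 (261), omission of the filter 17 and 26 (43), the Y-linked covariate 23 and 15 (38), all 6 groups in 1 fit 9 and 7 (16), and the late libraries alone 3 and 5 (8). Of the 6 genes, all 6 groups lost *Ccl4* and *Ccl9*, the late libraries alone *Ccl9* and *Slfn10-ps*, and scaling by library totals *Ccl4*. The macrophage marker covariate, added after the data were seen, left 0 and 2 (2), and with both covariates 0 and 0 genes passed by edgeR, with 590 and 514 at an unadjusted *P* under 0.05. Away from chromosomes 11, X and Y, 1 gene passed. At an unadjusted *P* under 0.05, 1045 genes were higher with the Y-linked covariate and 500 lower with the macrophage covariate, which left 17 genes past the false discovery rate in the DKO and a shared direction of 45.8%. Leaving out 1 library gave 2 to 9 genes past the false discovery rate (0 to 5 higher, 2 to 6 lower), 1066 to 1650 at an unadjusted *P* under 0.05 (444 to 836 higher, 573 to 907 lower), 97 to 783 past the false discovery rate in the DKO, 1 to 5 that differed between KO and DKO, and a shared direction of 63.6% to 80.9%. Genes without overlap were then 2422 to 3404, against 1872 with all libraries. Fewer libraries make that rule easier to meet, so this rise was fixed beforehand. With both covariates the sign turned for *Parp14* (0.52), *Oas2* (0.37), *Ifi27* (0.01), *Pycard* (0.40), *Slfn8* (0.15), *C3ar1* (0.36), *C5ar1* (0.02), *Psmb8* (0.99), *Aif1* (0.09), *C1qa* (0.15), *Cxcl16* (0.54), *Kdm5d* (-0.16), *Uty* (-0.95) and *Xist* (3.54), with the macrophage covariate for *C3ar1* (0.11), *C5ar1* (0.05), *Csf1r* (0.21), *mt-Rnr1* (-0.34), *mt-Rnr2* (-0.08) and *mt-Nd6* (-0.42), and with the Y-linked covariate for *Kdm5d* (-0.05), *Uty* (-0.11) and *Xist* (3.88). *Aif1*, *C1qa* and *Csf1r* are among the markers that make up the macrophage covariate. *mt-Nd6* (0.04) also turned without late KO replicate 3 (-0.20) or late WT replicate 1, 2 or 3 (-0.04 to -0.01). Values were counted over 162 genes, those that passed, led a direction, had an unadjusted *P* under 0.05 or are otherwise named above. The genes named for cGAS and STING were not in this count. Of 3236 values, 3065 kept their direction and side of the threshold, 38 lost the call, 106 gained it and 27 turned sign. The causes were not tested. Depth limited *Il1a*, *Il1b*, *Slfn10-ps*, *Gbp8*, *4930455G09Rik* and *Lvrn*, which had 10 counts or fewer in each KO library.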
